A study of Homo sapiens with 6 samples.

Results

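Golgins and Golgi stacking proteins were followed as a set of 10 genes out of the 34866 gene IDs in the deposited table of estimated counts. They were chosen by mouse Ensembl ID: Golga2, Golga3, Golga4, Golga5, Golgb1, Gorasp1, Gorasp2, Golim4, Golm1 and Trip11. All 10 IDs were found in the table. In 3 samples, MKN45 cells were given an adenovirus with an shRNA against GOLPH3, and in the other 3 an adenovirus with a control shRNA. MKN45 is a human gastric adenocarcinoma line, described in the design as negative for the gland mucin MUC6, and all 6 samples came from this single line and were exposed to virus. The labels do not give the time after infection, the viral dose, the number of hairpins or whether the numbered samples were separate cultures. Numbered samples are called replicates here, and whether each number stands for a different hairpin is not stated. The p-values rest on the spread among these 3 and 3 libraries, which the edgeR fit moderates with the spread of all tested genes. Part or all of that spread may be technical.

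All row names are mouse gene IDs and the submitters' processing notes name the mouse build mm10, although the labels give human cells. The table does not show whether the reads are human and were placed on mouse models, or come from mouse cells. A count of 0 or a low count is therefore not read as a low abundance in the cells, and fold changes compare 1 ID between libraries. Library totals ran from 4977645 to 5676169 estimated counts with GOLPH3 shRNA and from 6287037 to 7355140 in the controls, without overlap. Counts were scaled to a common library total (CPM) with trimmed mean (TMM) factors, which removes the difference in total. No 2 libraries of a group agreed within sampling noise, with a chi-square of 3.30 to 6.60 per degree of freedom over genes. The level of GOLPH3 itself, which would check the knockdown, and the markers of the epithelial line were not analysed here, because the IDs carry no symbols beyond the 10.

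The Golgi is a ribbon of stacked, flattened cisternae. Golgins are long coiled-coil proteins that stand out from its membranes like tentacles and catch incoming vesicles, each at its own level of the stack. The GRASP proteins Gorasp1 and Gorasp2 each join cisternae and stacks by pairing between copies of the same protein across the gap. GOLPH3 binds phosphatidylinositol 4-phosphate on trans-Golgi membranes, links them to the actin motor MYO18A and helps to retain glycosyltransferases. The comparison asks how the expression of these structural genes differs between samples with shRNA against GOLPH3 and samples with control shRNA.

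Of the 9 tested genes, 7 had a log2 fold change below 0, beside 49.9% of all tested genes, and 4 were called lower. Golgb1, which encodes giantin, was at 41.2% of its control level in the GOLPH3 shRNA samples. Golim4, Trip11 and Golga4 fell by less, to 67.6%, 71.0% and 80.2% of their control means. Golga3 rose 2.05-fold, from few counts, and its call was kept in 9 of 14 alternative fits. Golga2, Golga5, Gorasp1 and Gorasp2 did not pass the test, and Golm1 had too few counts to be tested.

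In numbers, 9 of the 10 genes were kept by the filter on low counts, 4 of these 9 were called lower, 1 was called higher and 4 were not called (quasi-likelihood test in edgeR, call at a p below 0.05 after Benjamini-Hochberg adjustment over all 11400 tested genes). Among all tested genes, 33.9% were called, 17.8% lower and 16.1% higher. The median log2 fold change of the 9 was -0.22, against 0.0019 over all tested genes, whose quartiles were -0.32 and 0.30. The groups did not overlap for 4 genes that were lower and for 1 that was higher. Such separation was found for 24.2% of all tested genes in the lower direction and for 22.1% in the higher direction. Shares of a set of 9 move in large steps, and no claim that the set as a whole differs from other genes is made.

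The summed level of the 10 genes was 349 ± 3 CPM in the 3 GOLPH3 shRNA libraries and 426 ± 18 CPM in the 3 control libraries (mean ± SD), or 81.9% of the control sum. Golga4 and Gorasp2 supplied most of these counts, but the lower sum does not follow these genes alone. Mean CPM with GOLPH3 shRNA and in the controls was 102 and 127 for Golga4 and 102 and 99.8 for Gorasp2. For Golgb1 it was 20.8 and 50.6. The sum therefore says little about any single gene. Levels were not ranked between genes, since counts depend on transcript length. If the reads are human, counts also depend on how far each mouse sequence departs from the human one. The within-library ratios given later are read only as differences between the groups.

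**Figure D1:**
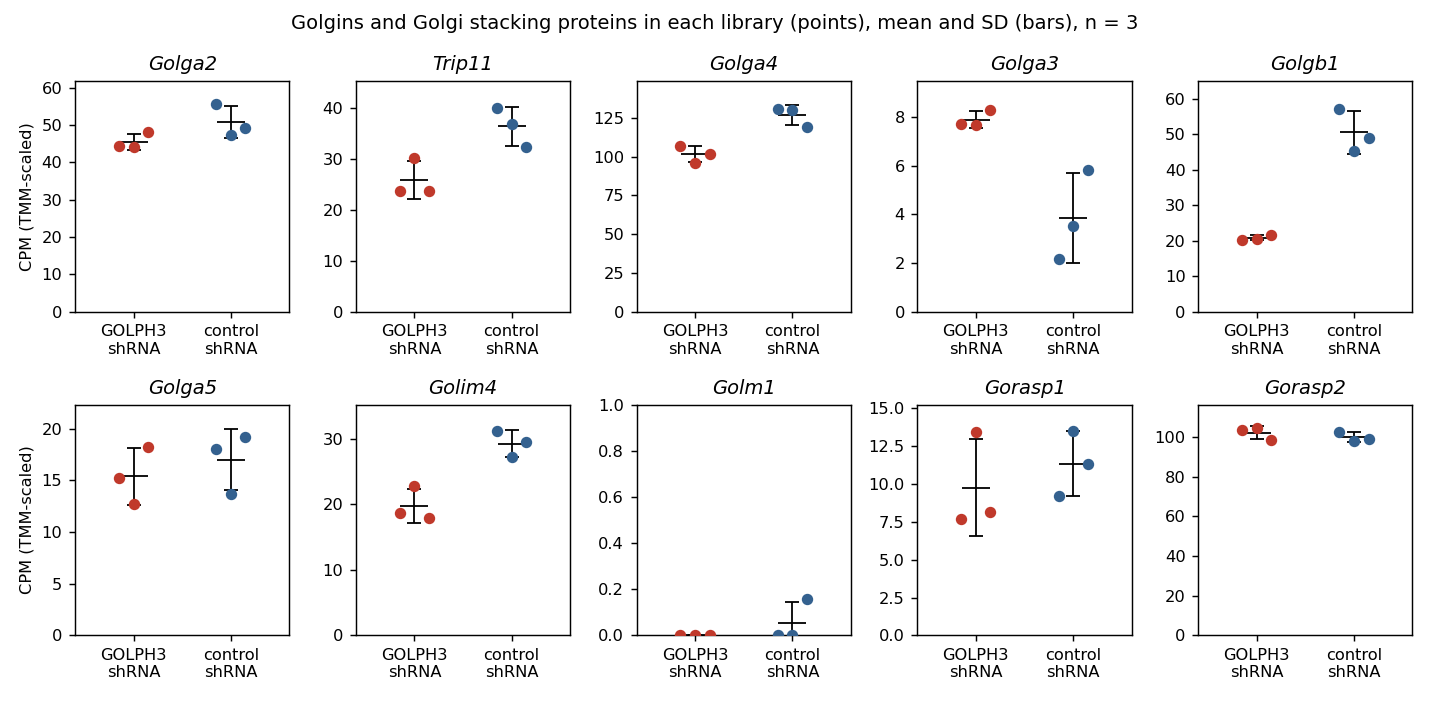
CPM scaled with TMM factors (vertical axis, separate scale for each gene, starting at 0) in the 3 GOLPH3 shRNA libraries (red, left) and the 3 control shRNA libraries (blue, right), with the mean and SD as black bars. The red and blue points are apart for Golgb1, Golim4, Trip11, Golga4 and Golga3, and overlap for Golga2, Golga5, Gorasp1 and Gorasp2, while Golm1 has 1 count in 1 control library.

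Giantin is the longest of the golgins, anchored in the Golgi membrane by a stretch at its C-terminal end, and is known for tethering vesicles at the rims of cisternae. Golgb1 (ENSMUSG00000034243.16) had 20.3, 20.6 and 21.7 CPM in the GOLPH3 shRNA libraries, from 100, 115 and 120 counts. It had 57.3, 45.4 and 49.0 CPM in the control libraries, from 368, 333 and 311 counts. The highest GOLPH3 shRNA value lay below the lowest control value by more than the whole spread of either group. The log2 fold change was -1.28 (SE 0.12, 95% interval -1.54 to -1.01), or 2.42-fold lower, with an edgeR adjusted p of 1.89e-06. Only 1.68% of all tested genes had a lower log2 fold change. Of all tested genes, 2.91% were called at least 2-fold lower, and Golgb1 was the 1 member that was. Its 95% interval did not overlap that of any other tested member; the differences between members were not tested further.

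The human gene GOLGB1 lies at chr3:121663201-121749966 (GRCh38.p14, RefSeq). Its promoter window is shown because this gene had the largest decrease of the set, and that of GOLGA3 because it is the 1 member that was higher. The window of GORASP2 is shown as a member with no detectable difference. Each window runs from 250 bases before to 50 bases after the start site used in the RefSeq promoter table, 5′ to 3′ on the gene's strand. For GOLGA3 that site is the outer 5′ end of the RefSeq gene. For GOLGB1 it lies 225 bases inside that end (position 121749741), and for GORASP2 it lies 776 bases inside (position 170929253), so these windows overlap the gene as annotated. A window describes the human gene only, since the table was counted on mouse models. Capitals mark matches to any of 4 motifs searched on both strands: ACGTGGC, the element bound by TFE3 in the Golgi stress response, CACGTG, the E-box, TGACGTCA, the cAMP response element, and CCAAT, the CCAAT box.
GOLGB1, chr3:121749692-121749991, minus strand: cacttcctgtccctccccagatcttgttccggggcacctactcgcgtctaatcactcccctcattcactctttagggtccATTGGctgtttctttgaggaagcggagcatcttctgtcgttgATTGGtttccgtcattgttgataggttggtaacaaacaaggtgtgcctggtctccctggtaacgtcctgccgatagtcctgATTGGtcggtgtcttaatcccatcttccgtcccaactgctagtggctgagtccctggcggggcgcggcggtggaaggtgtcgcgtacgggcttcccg
GOLGA3, chr12:132829032-132829331, minus strand: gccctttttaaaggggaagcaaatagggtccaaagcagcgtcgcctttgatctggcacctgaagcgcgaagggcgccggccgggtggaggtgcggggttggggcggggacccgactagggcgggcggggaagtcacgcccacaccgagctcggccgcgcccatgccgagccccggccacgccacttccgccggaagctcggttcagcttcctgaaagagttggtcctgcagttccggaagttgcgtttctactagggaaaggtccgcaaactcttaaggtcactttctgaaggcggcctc
GORASP2, chr2:170929003-170929302, plus strand: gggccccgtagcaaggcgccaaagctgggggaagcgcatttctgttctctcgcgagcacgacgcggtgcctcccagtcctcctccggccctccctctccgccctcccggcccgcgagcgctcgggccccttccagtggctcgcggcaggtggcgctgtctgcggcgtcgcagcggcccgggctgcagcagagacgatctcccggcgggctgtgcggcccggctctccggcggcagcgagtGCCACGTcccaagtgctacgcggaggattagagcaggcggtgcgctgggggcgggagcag

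The GOLGB1 window held 3 CCAAT boxes, all read on the strand opposite to the gene, with first bases at -170, -128 and -47 from the start site of the window, which places all 3 inside the outer 5′ end of the RefSeq gene. The GOLGA3 window held none of the 4 motifs. The GORASP2 window held 1 TFE3 element, on the opposite strand at -10 from the start site of its window and likewise inside the RefSeq gene. Windows were matched for 9 of the 10 members. Among these, 3 held a CCAAT box (GOLGA2, GOLGB1 and GOLIM4), against 35.7% of 27305 windows of the same length over all genes in the RefSeq table. The TFE3 element was in 2 (GOLGA5 and GORASP2), against 3.3% of all windows, and neither of these genes was called in the expression test. The E-box was in 1 (GOLIM4), against 7.43% of all windows, and the cAMP response element in 0, against 1.98%. ACGTGGC and CACGTG can share bases, but no member window held both. A match is a stretch of letters and not a bound site.

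At the cis side of the stack, Trip11 encodes GMAP-210, a golgin that binds small vesicles through a curvature-sensing motif at its free end. Trip11 (ENSMUSG00000021188.14) had 23.7, 30.1 and 23.7 CPM in the GOLPH3 shRNA libraries, against 40.0, 36.8 and 32.3 CPM in the control libraries. The groups did not overlap, with the nearest pair of values being GOLPH3 shRNA replicate 2 and control replicate 3. The log2 fold change was -0.49 (SE 0.14), or 1.41-fold lower, with an edgeR adjusted p of 0.011. Without GOLPH3 shRNA replicate 1 it was -0.44 and was not called (edgeR adjusted p of 0.053).

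Golga2 encodes GM130, the cis-Golgi golgin that receives vesicles together with the tether p115 and is held on the membrane by GRASP65. Golga2 (ENSMUSG00000002546.16) had 44.4, 44.0 and 48.1 CPM with GOLPH3 shRNA, against 55.6, 47.3 and 49.3 CPM in the controls. GOLPH3 shRNA replicate 3 lay above the lowest control value, so the groups overlapped. Its log2 fold change was -0.16 (SE 0.11, edgeR adjusted p of 0.28), and the 95% interval of -0.38 to 0.069 leaves room for a decrease of up to 1.30-fold.

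Golga4 encodes the trans-Golgi golgin p230, which is recruited by the small GTPase ARL1 through its GRIP domain. Golga4 (ENSMUSG00000038708.10) had 107, 96.1 and 102 CPM with GOLPH3 shRNA, against 131, 130 and 119 CPM in the controls. All GOLPH3 shRNA values were lower than all control values. In the fit, Golga4 had a log2 fold change of -0.32 (SE 0.081), or 1.25-fold lower, with an edgeR adjusted p of 0.0061. Golga4 was the 1 member with estimates that were not whole, and these occurred in the 3 GOLPH3 shRNA libraries (527.041, 536.991 and 564.39) and in no control library. No label or header says how estimates were formed, and the source of the fractions was not tested.

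Golga3 encodes golgin-160, a peripheral golgin that takes part in the transport of some cargo proteins to the cell surface and is cut by caspases in apoptosis. Golga3 (ENSMUSG00000029502.14) had 7.70, 7.70 and 8.31 CPM with GOLPH3 shRNA, from 38, 43 and 46 counts. It had 2.18, 3.55 and 5.83 CPM in the controls, from 14, 26 and 37 counts. The GOLPH3 shRNA values lay close together and above the control values, which were spread over more than 2-fold. For Golga3 the log2 fold change was 1.04 (SE 0.34, 95% interval 0.32 to 1.76), with an edgeR adjusted p of 0.027. This call was lost when any 1 of 5 libraries was left out. It stood at 1.05, 1.05 and 0.99 on the log2 scale without GOLPH3 shRNA replicates 1, 2 and 3, and at 0.76 and 0.97 when control replicates 1 and 2 were dropped. The edgeR adjusted p in these fits ran from 0.051 to 0.10, and without control replicate 3 the gene was called at 1.44.

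Golga5 encodes golgin-84, which is anchored in the membrane like giantin and binds the small GTPase RAB1. Golga5 (ENSMUSG00000021192.16) had 15.2, 12.7 and 18.3 CPM with GOLPH3 shRNA, against 18.1, 13.6 and 19.2 CPM in the controls. The groups overlapped over most of their range. Its fitted log2 fold change was -0.14 (SE 0.19, 95% interval -0.55 to 0.27, edgeR adjusted p of 0.62). Both membrane-anchored golgins, Golgb1 and Golga5, thus had separate intervals, although the interval of Golga5, from 71 to 122 counts per library, holds decreases of up to 1.46-fold.

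Golim4 encodes GPP130, a cis-Golgi membrane protein with a coiled-coil lumenal stalk that cycles through endosomes and is sent to lysosomes when manganese is high. Golim4 (ENSMUSG00000034109.15) had 18.7, 22.7 and 17.9 CPM with GOLPH3 shRNA, against 31.1, 27.1 and 29.5 CPM in the controls. The groups did not overlap. The log2 fold change was -0.56 (SE 0.15), or 1.48-fold lower, with an edgeR adjusted p of 0.0069. Golm1 (ENSMUSG00000021556.12) encodes GP73, another cis-Golgi membrane protein of similar layout, and had 0 counts in the 3 GOLPH3 shRNA libraries and 0, 0 and 1 in the control libraries. A count of 0 allows up to 0.537 to 0.608 CPM in a GOLPH3 shRNA library (3 counts), so no difference was detectable at this depth, and no fold is given.

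**Figure D2:**
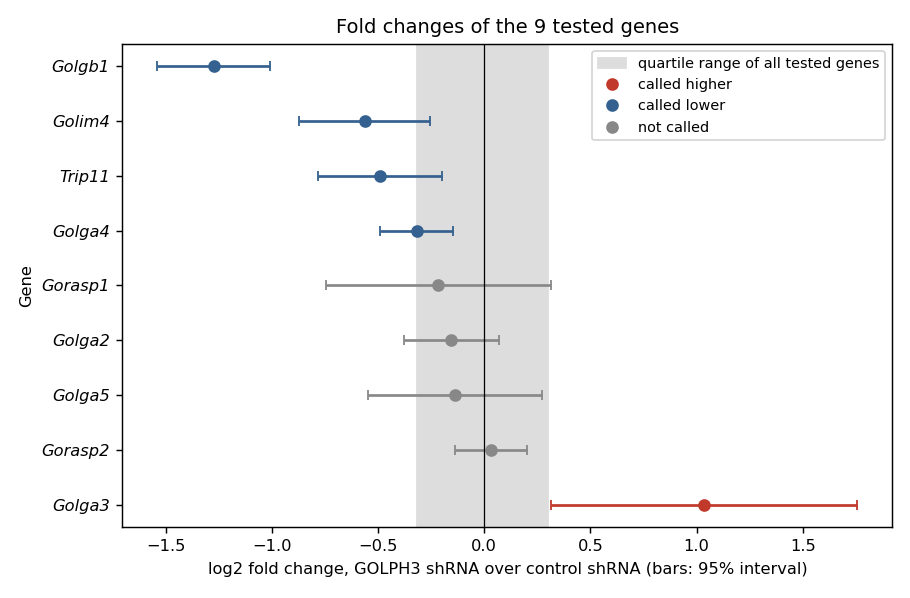
Log2 fold change (horizontal axis, GOLPH3 shRNA over control shRNA) of the 9 tested genes with 95% intervals, in order of size, with the range between the quartiles of all 11400 tested genes as a grey band. Golgb1 at -1.28 lies far to the left of the band and Golga3 at 1.04 to the right with a wide interval. Golim4 at -0.56 and Trip11 at -0.49 also lie to the left of the band, and Golga4 at -0.32 lies at its edge. The 4 genes that were not called lie inside it, between -0.22 and 0.031.

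The stacking proteins showed no call in either direction. Gorasp2 encodes GRASP55, the GRASP of the medial and trans cisternae. Gorasp2 (ENSMUSG00000014959.12) had 103, 104 and 98.3 CPM with GOLPH3 shRNA, against 103, 97.6 and 99.1 CPM in the controls. The 2 groups covered nearly the same range. Gorasp2 differed by 0.031 on the log2 scale (SE 0.079, edgeR adjusted p of 0.79), and the 95% interval of -0.14 to 0.20 spans 0.910-fold to 1.15-fold. Gorasp2 thus has the narrowest interval of the 9 tested genes.

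Gorasp1 encodes GRASP65, the cis-Golgi GRASP that is phosphorylated by mitotic kinases when the stack comes apart at cell division. Gorasp1 (ENSMUSG00000032513.8) had 7.70, 13.4 and 8.13 CPM with GOLPH3 shRNA, against 9.18, 13.5 and 11.3 CPM in the controls. Replicate 2 was the highest library in both groups, and the groups overlapped. Gorasp1 differed by -0.22 on the log2 scale (SE 0.25, edgeR adjusted p of 0.54), with a 95% interval of -0.75 to 0.31 that holds decreases of up to 1.68-fold.

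Both GRASP genes were also set against each other within each library. The log2 ratio of Gorasp1 to Gorasp2 was -3.39 ± 0.40 with GOLPH3 shRNA and -3.12 ± 0.31 in the controls (mean ± SD, n = 3 each), a difference of -0.27 with an exact two-sided permutation p of 0.4. The log2 ratio of Golga2 to Gorasp1, whose proteins form a complex, was 2.23 ± 0.47 with GOLPH3 shRNA and 2.14 ± 0.39 in the controls. That difference of 0.085 had an exact two-sided permutation p of 1 and changed sign when single libraries were left out. With 3 libraries against 3 this test cannot go below 0.1, and over the 2 ratios no p was adjusted.

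**Figure D3:**
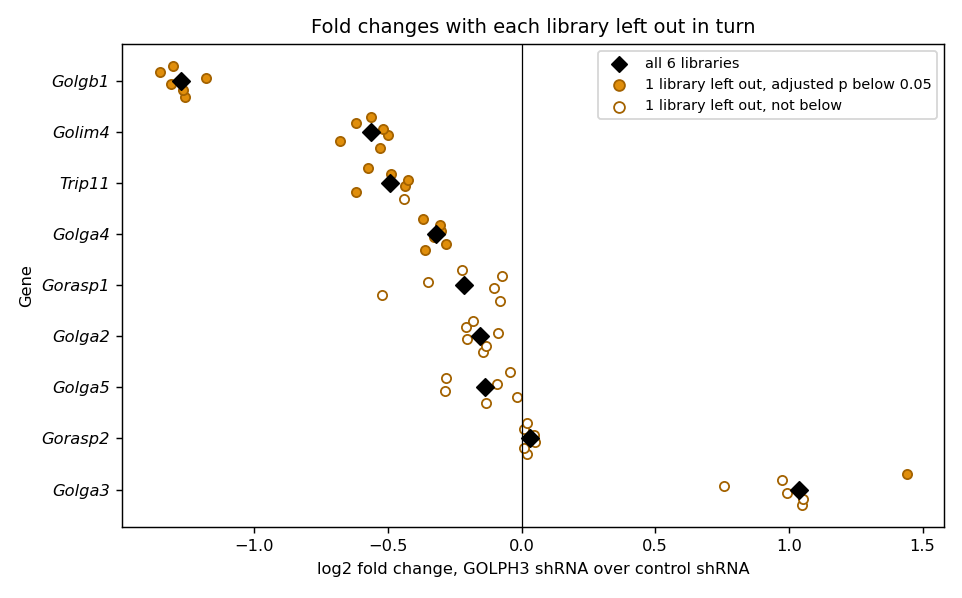
Log2 fold change of each tested gene with all 6 libraries (black diamonds) and with 1 library left out (circles, filled where the adjusted p stayed below 0.05; offsets up or down within a gene only keep circles apart). Golgb1, Golim4 and Golga4 keep filled circles throughout, Trip11 has 1 open circle and Golga3 has 5, and every circle lies on the same side of 0 as its diamond.

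The 4 genes called lower did not all belong to the same side of the stack. Golim4 and Trip11 encode a cis-Golgi membrane protein and a cis-Golgi golgin, and Golga4 a trans-Golgi golgin. Golgb1 is listed here by its membrane anchor, which does not give a place in the stack. Length was also looked at, although golgins are long proteins and the choice of genes is therefore not independent of it. The longest coding sequences of the human genes were 9807 bases for GOLGB1, 6729 for GOLGA4, 5937 for TRIP11 and 4494 for GOLGA3 (GENCODE 29), and the other 5 tested genes had 1320 to 3006 bases. The 3 longest were all called lower, GOLIM4 was called lower at 2088 bases, and the fourth in length, GOLGA3, was higher. Across the 9 tested genes the rank correlation of human coding length with log2 fold change was -0.4 (Spearman), without Golgb1 it was -0.143, and without Golga3 it was -0.548. The points share the same 6 libraries and human lengths stand in for the models that were counted, so the value is a description. The part of length in these decreases was not tested.

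**Figure D4:**
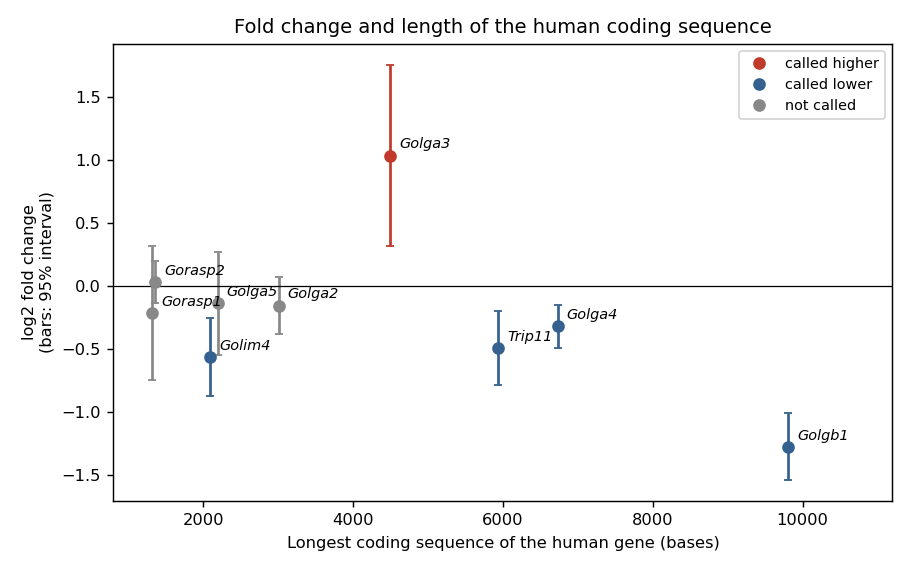
Log2 fold change with 95% interval (vertical axis) against the longest coding sequence of the human gene in bases (horizontal axis) for the 9 tested genes. The 3 genes with the longest coding sequences, Golgb1, Golga4 and Trip11, lie below 0, Golga3 lies above 0, and the shorter genes lie between -0.56 and 0.031.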

How the data were processed

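RNA sequencing was analysed in 3 GOLPH3 shRNA and 3 control shRNA samples. Per the labels' protocols, libraries were made with a stranded kit for messenger RNA. The deposited table holds estimated counts for each gene ID. The submitters' processing notes name the build mm10. Neither notes nor labels, as used here, give the aligner, quantifier, annotation or strand setting. Of the row names, 34866 begin with ENSMUSG and 0 matched the human gene tables. Symbols of the 10 members came with the choice of genes, and related lists planned by symbol (other tethers, COG, SNAREs, GTPases, cell type markers) were not analysed here. The members and lists were chosen with earlier results of these data known.

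Values were rounded to the nearest whole number, filterByExpr kept 11400 IDs, and the group difference was fitted in edgeR 4.0.16 under R 4.3.3 (TMM, quasi-likelihood F test, Benjamini-Hochberg over all tested IDs, threshold 0.05), tested on simulated data. SE is the log2 fold change over the square root of F. Ratios used log2 CPM with prior count 2. All 10 members are named whatever their result. Alternatives were DESeq2 1.42.0, limma-voom (limma 3.58.1), other scalings and filters, thinning to the smallest total, a replicate block and leaving out each library. Total counts of 4977645 to 7355140 per library limit the precision of genes with few counts; intervals for a count of 0 cover counting error only.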

Additional observations from a re-analysis of the deposited data

How the results depend on the processing

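Over the 14 alternatives to each fit, no member changed direction. Golgb1, Golga4 and Golim4 were called lower in all 14, with log2 fold changes of -1.35 to -1.18, -0.37 to -0.28 and -0.68 to -0.50. Trip11 was called in 13 (-0.62 to -0.42) and Golga3 in 9 (0.76 to 1.44), the losses being the left-out libraries given above. Golga2, Golga5, Gorasp1 and Gorasp2 were called in 0. When single libraries were left out, there were 3 to 4 members lower and 0 to 1 higher, 1644 to 1929 of all genes lower and 1425 to 1665 higher, a Gorasp1 to Gorasp2 difference of -0.50 to -0.12 and a Golga2 to Gorasp1 difference of -0.094 to 0.35. The last was -0.082 in thinned libraries, and the cause was not tested. With the replicate block, 4 members were lower and 1 higher, beside 2045 of all 11400 tested genes lower and 1842 higher. No call of a member changed in that fit. The ratio differences stayed at -0.27 and 0.085 (exact sign-flip p of 0.25 and 1, smallest possible 0.25). Deviations of same-numbered libraries from their group means correlated at 0.032, 0.090 and 0.044. Differently numbered libraries gave -0.086 to 0.037, and each GOLPH3 shRNA library correlated most with the control of its own number. All values were small, and the numbers were not taken as pairs in the main fit. Whether they mark pairs was not settled. No scaling moved the median of all genes by more than 0.1. Low counts limit Golga3 (14 to 46 per library), Gorasp1 (38 to 99) and Golm1.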
